A study of Mus musculus with 3 samples.

Results

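The cytochrome P450 genes were followed across 3 libraries of mature medullary thymic epithelial cells of the mouse. Every gene of the array annotation whose symbol begins with Cyp and a digit was taken, which gave 87 of the 19937 genes on the table, in 15 families and on 14 chromosomes. Each of the 87 had 1 probe set, and 2 of them are annotated as pseudogenes. The rule uses symbols alone and no measured value.

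The library labelled AireKO came from Aire-/- mice. The library labelled Sirt1cKO came from Sirt1fl/fl mice that carry Foxn1-Cre, a recombinase active in the thymic epithelium of both cortex and medulla. The library labelled WT came from Sirt1fl/fl mice without Cre. The strain of all 3 is labelled C57b/6, and the cells were sorted as EpCAM+, CD45-, Ly51 low and MHC-II high from mice aged 6 weeks, typically 3 to a pool. Each genotype had 1 library, so no difference has a replicate check, no p-value is given, and each difference describes 2 libraries. The values are array intensities, given here as log2, and the number of arrays limits their precision.

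P450 enzymes are heme proteins that insert an oxygen atom into lipophilic substrates, with electrons delivered by partner reductases. Families 1 to 3 mostly clear drugs and other foreign compounds in liver, lung and gut, family 4 hydroxylates fatty acids, and the higher families make or break down steroids, bile acids, vitamin D and retinoic acid. Medullary thymic epithelial cells transcribe many genes of other organs, partly through the nuclear protein Aire, and display their products to developing T cells. Several human P450 enzymes of adrenal and liver are targets of autoantibodies in people who lack AIRE.

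Olfactory receptor (Olfr) genes, 1027 of them, served as background, since they are mostly silent outside the nose. Their 95th percentile lay at log2 6.89 in AireKO, 6.34 in Sirt1cKO and 6.02 in WT, and a value at or below it was taken as within background. The targeted genes did not check the labels. Aire stood at 11.55 in the library labelled AireKO, 11.24 in the library labelled Sirt1cKO and 11.97 in WT, and Sirt1 at 11.42, 11.27 and 11.40 in the same order, but a whole-transcript probe set need not lie in the deleted part. The free-text descriptions of the 2 knockout libraries name each other's genotype, so AireKO and Sirt1cKO stand for the library labelled so by title throughout. All 13 genes of the medullary list were above background in every library, Epcam among them at 10.49, 10.91 and 11.01. Sex-linked genes also differed. Xist stood at 6.75 in AireKO, within background, 11.46 in Sirt1cKO and 12.17 in WT, while the Y-linked gene Eif2s3y stood at 9.75, 8.92 and 4.23. H2-Ea, an MHC gene, was bright only in AireKO, at 13.23 against 5.90 in Sirt1cKO and 5.60 in WT. Xist was at least 23.85-fold lower in AireKO than in Sirt1cKO. Genotype and sex-linked signal cannot be told apart in either comparison with WT, nor in AireKO minus Sirt1cKO, where Xist differed. Genotype and the H2-Ea difference cannot be told apart in the comparisons that use AireKO.

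Of the 87 P450 genes, 21 were above background in AireKO, 37 in Sirt1cKO and 47 in WT, or 24.1%, 42.5% and 54.0%. Among genes other than olfactory receptors the shares were 58.9% in AireKO, 70.5% in Sirt1cKO and 76.4% in WT. The counts moved with the percentile of each library. Against 1 floor for all libraries, the AireKO percentile, 21 members were above it in AireKO, 21 in Sirt1cKO and 21 in WT, and 17 of them were the same genes in all 3. In all, 20 members were above background in every library, 28 in some, and 39, or 44.8%, in none, where 58.4% of other genes were above in every library and 23.1% in none.

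The values did not split into clear groups at the percentile. In WT 19 members lay above it by up to 0.5 on the log2 scale and 6 below it by up to 0.5. In Sirt1cKO the counts were 15 and 11, and in AireKO 8 and 12. A member called above background by a narrow margin, such as Cyp3a25 at 6.89 in AireKO, is no firmer than one called within it, such as the pseudogene Cyp4f41-ps at 6.85.

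**Figure D1:**
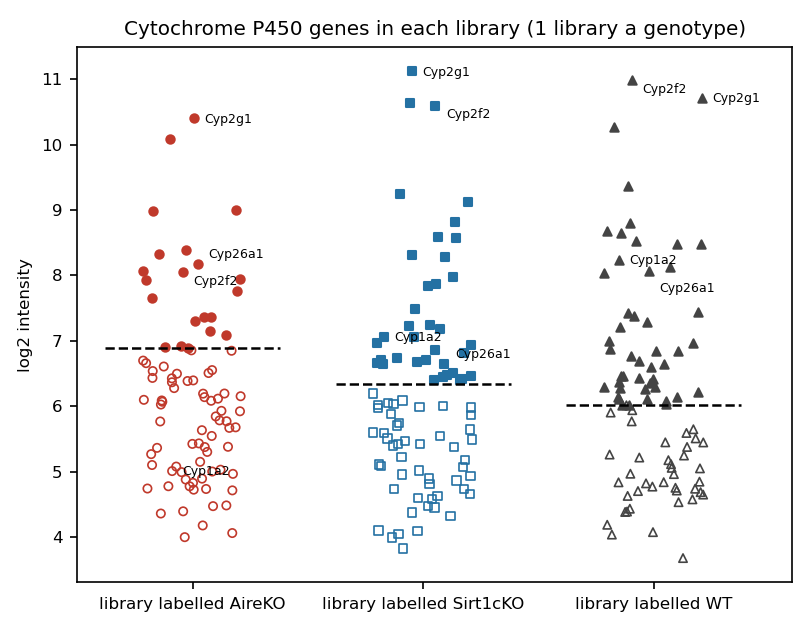
Log2 intensity of the 87 cytochrome P450 genes in each library, 1 point a gene. Filled points are above the 95th percentile of the olfactory receptor genes (dashed line), which lay at 6.89 in AireKO, 6.34 in Sirt1cKO and 6.02 in WT; most members lie below 9 in every library.

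The counts over all members were small. In AireKO minus WT, 48 members were above background in at least 1 of the 2 libraries. Of these, 2 were at least 2-fold lower, Cyp2f2 and Cyp1a2, and 0 were higher. The shares of all 14560 such genes were 6.33% lower and 2.10% higher, so the members' 4.17% lower was no larger than the background. For 24 of the 48 no fold could be given, since 1 library was within background and the value above background in the other did not exceed the percentile of the first. Among the 20 measured in both libraries, differences other than that of Cyp2f2 lay between -0.71 for Cyp17a1 and 0.90 for Cyp2d40. After median centring, which moved the median difference of all genes to 0.29, Cyp2f2 and Cyp1a2 stayed lower, and Cyp2c37, Cyp2d40 and Cyp4a10 passed 2-fold higher. The split of all genes turned with that scaling, with 922 lower and 306 higher as deposited, 655 and 396 after quantile normalization, 614 and 410 after loess and 449 and 672 after median centring.

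In Sirt1cKO minus WT, 47 members were above background in at least 1 library, of which 2 were at least 2-fold lower, Cyp26a1 and Cyp1a2, and 0 were higher. The shares of all 14594 such genes were 1.30% lower and 0.637% higher, beside 4.26% of members lower. With counts this small the excess rests on those 2 genes. Of the 37 members measured in both libraries, 30 differed by no more than 0.5. The split of all genes was 189 lower and 93 higher, or 127 and 130 after median centring. Both comparisons use the same WT library, so a bright WT value of Cyp1a2 enters both.

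Set directly against each other, AireKO minus Sirt1cKO had 38 members above background in at least 1 library. Cyp2f2 was lower in AireKO by 2.55 on the log2 scale, and Cyp26a1 was higher by 1.53. These were the 1 lower and the 1 higher member past 2-fold, beside 2.07% and 0.825% of all 13453 such genes. The split of all genes was 278 lower and 111 higher, or 166 and 196 after median centring. For Cyp1a2, which was within background in AireKO, the bound was under 2-fold.

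**Figure D2:**
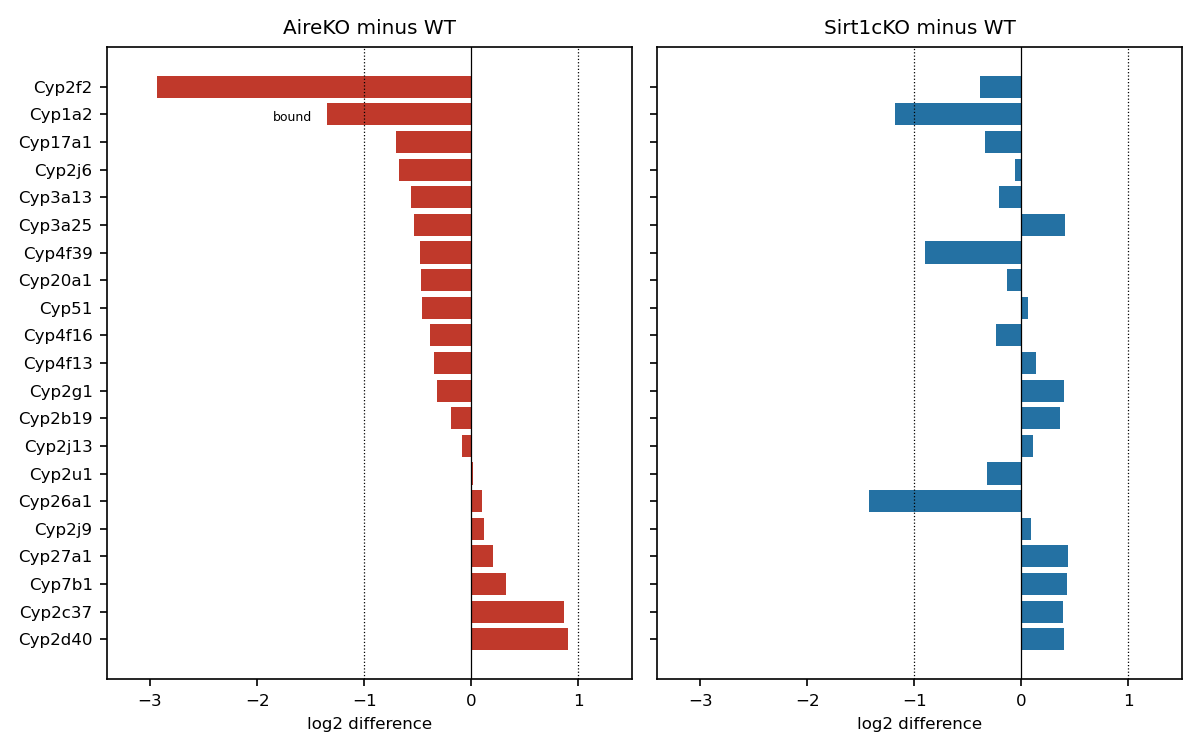
Log2 difference from WT (x axis) of the 20 P450 genes above background in every library and of Cyp1a2, in AireKO (left) and Sirt1cKO (right); dotted lines mark 2-fold, and the Cyp1a2 bar in AireKO is a lower bound of the fold. Cyp2f2 passes 2-fold in AireKO alone, at -2.94, Cyp26a1 in Sirt1cKO alone, at -1.42, and Cyp1a2 in both.

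The 20 members above background throughout had a median difference of -0.33 in AireKO minus WT, with 13 of them below 0, where 11029 other genes above background in every library had -0.16 and 62.4% below 0. In Sirt1cKO minus WT the median was 0.07 with 9 of 20 below 0, where the other genes had -0.06 and 57.5%. Over all 87 members the medians were 0.04 in both comparisons, and the sign turned with the scaling. They were -0.18 and -0.09 after quantile normalization, -0.15 and -0.08 after loess, and 0.32 and 0.13 after median centring.

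Among the members of families 1 to 3, those named next are known from epithelia of the airway, nose and skin. Cyp2f2, the monooxygenase of airway club cells that activates naphthalene, had log2 values of 8.05 in AireKO, 10.60 in Sirt1cKO and 10.98 in WT. AireKO stood apart from the other libraries, with a difference from WT of -2.94, or 7.66-fold lower. Sirt1cKO minus WT was -0.38. Cyp2g1, a P450 of the olfactory mucosa, stood at 10.40 in AireKO, 11.12 in Sirt1cKO and 10.72 in WT. Cyp2b19, which epoxidizes arachidonic acid in differentiated keratinocytes, stood at 10.08, 10.63 and 10.27 in the same order. Neither differed by 2-fold in any comparison. In bulk cells, fewer cells of a type and less RNA per cell cannot be told apart.

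These genes lie in 1 cluster of family 2 genes on chromosome 7, whose members run in the order Cyp2s1, Cyp2b10, Cyp2b13, Cyp2b9, Cyp2b23, Cyp2b19, Cyp2g1, Cyp2a22, Cyp2a12, Cyp2f2 and Cyp2t4. Of these 11 members, 3 were above background in every library, 3 in Sirt1cKO and WT alone, and 5 in none. Of genes other than olfactory receptors, 58.4% were above in every library and 23.1% in none. Cyp2b19 and Cyp2g1 are next to each other among the members, while the members on both sides of Cyp2f2 were within background. Cyp2t4, the next member after Cyp2f2, stood at 5.08 in AireKO, 4.93 in Sirt1cKO and 4.84 in WT, and Cyp2a12, the member before it, at 5.27, 5.49 and 5.06. Cyp2s1, which is known from epithelia and acts on retinoids, had 6.55 in AireKO, within background, 6.39 in Sirt1cKO and 7.21 in WT. Cyp2b10, which phenobarbital induces in liver, had 6.03, also within background, 6.67 and 6.85. Cyp2b23 had 6.51, within background, 6.71 and 6.46. These 3 showed no common order of the libraries. Cyp2b13, Cyp2b9 and Cyp2a22 were within background throughout, at 4.07 to 5.60. The 11 members leave out a probe set shared by 2 Cyp2a genes of the cluster. It had 10.20 in AireKO, 11.64 in Sirt1cKO and 11.76 in WT, so AireKO lay 1.56 below WT there as well. Cyp2f2, which was lower in AireKO, was set beside Cyp2b19, another member of the cluster that did not pass 2-fold. The 250 bases before the start of each are shown. They come from RefSeq in GRCm38.p6, at chr7:27119705-27119954 and chr7:26756892-26757141, both on the plus strand, and read 5′ to 3′. The Cyp2f2 window held 0 CpG and the Cyp2b19 window 1. Neither held the TATA motif, the Ahr core or the retinoic acid repeat searched for below on either strand, so no letter is in capitals.
Cyp2f2: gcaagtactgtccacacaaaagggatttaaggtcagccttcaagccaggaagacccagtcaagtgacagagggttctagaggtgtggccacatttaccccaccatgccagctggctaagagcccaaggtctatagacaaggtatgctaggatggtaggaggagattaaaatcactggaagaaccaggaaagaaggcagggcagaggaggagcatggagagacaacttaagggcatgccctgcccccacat
Cyp2b19: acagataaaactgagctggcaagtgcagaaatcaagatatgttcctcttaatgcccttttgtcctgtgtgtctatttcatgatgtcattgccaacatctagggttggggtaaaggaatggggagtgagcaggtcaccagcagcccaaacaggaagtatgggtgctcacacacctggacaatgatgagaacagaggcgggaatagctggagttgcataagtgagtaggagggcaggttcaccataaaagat

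**Figure D3:**
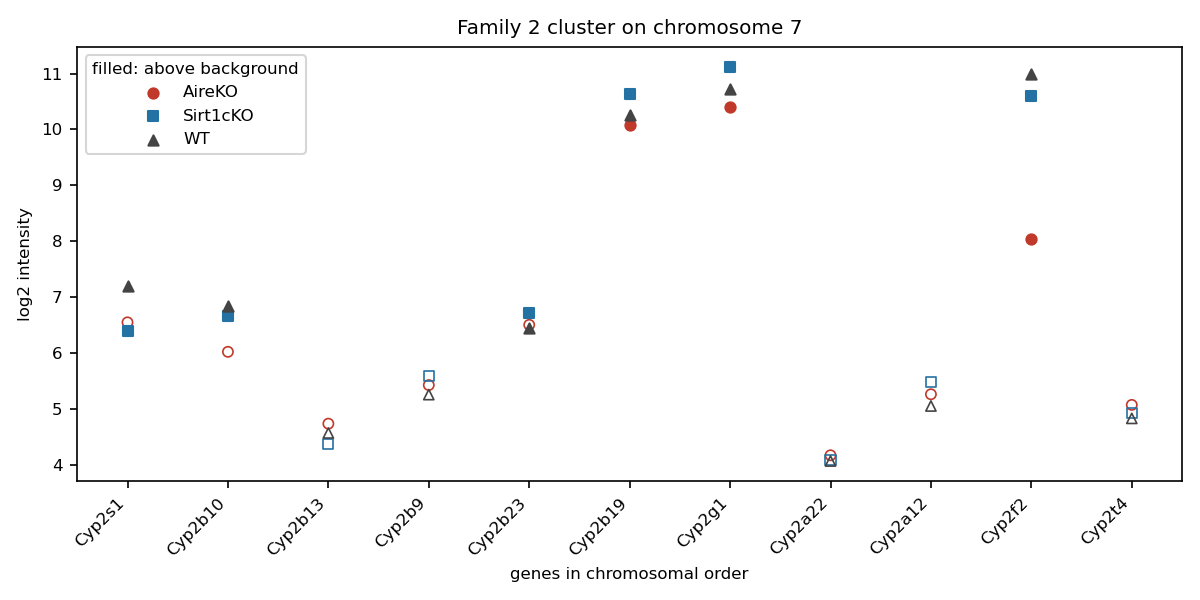
Log2 intensity (y axis) of the 11 family 2 genes of the chromosome 7 cluster, in chromosomal order (x axis), in AireKO (circles), Sirt1cKO (squares) and WT (triangles); filled points are above background. Of these 11, Cyp2f2 alone shows AireKO far from the other libraries, at 8.05 against 10.60 in Sirt1cKO and 10.98 in WT. A probe set shared by 2 Cyp2a genes of the cluster, also lower in AireKO, is not shown.

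Markers of airway cells were read beside Cyp2f2. Of the 6 on the table, 3 were above background in AireKO, 3 in Sirt1cKO and 5 in WT. Of genes other than olfactory receptors, 58.9%, 70.5% and 76.4% were above it in that order. The summed intensity of the 6 was 3836 in AireKO, 9517 in Sirt1cKO and 7436 in WT. Bpifa1, a secreted protein of the upper airway, was at 8.93 in AireKO, 11.93 in Sirt1cKO and 12.05 in WT, a difference from WT of -3.12 in AireKO. Scgb1a1, the defining secretoglobin of club cells, did not share it, with 11.53, 12.35 and 11.39 in the same order. Scgb3a2, another club cell gene, was within background in every library. Of 6 markers of olfactory epithelium, read beside Cyp2g1, 2 were above background in AireKO, 4 in Sirt1cKO and 5 in WT. The shares of other genes rose in the same order, as given for the airway markers. The summed intensity of the olfactory markers was 1241, 2085 and 1813 in that order. Gng13, the brightest of them, was highest in Sirt1cKO, as Cyp2g1 was, at 9.51, 10.20 and 9.28. Omp was highest in WT, at 8.20, 8.73 and 8.75, as were Obp2a, Cnga2 and Bpifb9a. Obp1a was within background in every library. The part of such cells in the P450 values was not tested.

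Cyp1a2, a caffeine-oxidizing enzyme of hepatocytes whose human counterpart is a liver autoantigen, had log2 values of 5.01 in AireKO, within background, 7.06 in Sirt1cKO and 8.24 in WT. Both knockout libraries lay below WT. AireKO was at least 2.55-fold lower than WT, and Sirt1cKO minus WT was -1.18, or 2.26-fold lower. Cyp1a1, its neighbour on chromosome 9, which acts on aromatic hydrocarbons, was within background everywhere, at 4.78 in AireKO, 4.86 in Sirt1cKO and 4.85 in WT. Cyp1b1, which hydroxylates oestrogens and hydrocarbons, stood at 6.19, 5.97 and 6.30, above background in WT alone. Ahr, the receptor that induces this family, was named outside the naming rule and stood at 8.01 in AireKO, 8.39 in Sirt1cKO and 8.16 in WT. The 250 bases before the start of Cyp1a2 and Cyp1a1 are shown because the neighbours differed in detection. They lie at chr9:57683656-57683905 on the minus strand and chr9:57697363-57697612 on the plus strand of GRCm38.p6, from RefSeq. Capitals mark TATAAA, 29 bases before the start of Cyp1a2 and 30 before that of Cyp1a1, and GCGTG, the core bound by the Ahr complex, which was in the Cyp1a1 window alone.
Cyp1a2: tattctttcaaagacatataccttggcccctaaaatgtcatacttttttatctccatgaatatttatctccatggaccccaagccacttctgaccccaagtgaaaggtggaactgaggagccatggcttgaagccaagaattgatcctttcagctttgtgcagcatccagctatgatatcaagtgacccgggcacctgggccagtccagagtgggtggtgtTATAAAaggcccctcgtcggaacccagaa
Cyp1a1: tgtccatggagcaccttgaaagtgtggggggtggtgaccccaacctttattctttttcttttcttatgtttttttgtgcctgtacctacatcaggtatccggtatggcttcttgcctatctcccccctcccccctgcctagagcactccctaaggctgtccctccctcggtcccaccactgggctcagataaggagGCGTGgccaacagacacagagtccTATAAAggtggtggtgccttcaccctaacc

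Over all promoter windows of the table, 12.4% held TATAAA and 28.2% held GCGTG on either strand, against 35.9% and 23.4% of the 64 P450 genes with a window. Their letters cannot overlap. Hepatocyte markers were read beside Cyp1a2. Of 12 on the table, 5 were above background in AireKO, 7 in Sirt1cKO and 8 in WT, with summed intensities of 2880, 3940 and 5207. The shares of genes other than olfactory receptors above background were 58.9%, 70.5% and 76.4% in that order. Alb, the albumin gene, had 6.04 in AireKO, within background, 7.56 in Sirt1cKO and 8.89 in WT, the same order of libraries as Cyp1a2. Apoa1 had that order as well, at 9.26, 10.18 and 10.59, as did Trf at 9.21, 9.59 and 10.19. Hp also had it, within background in AireKO. Ttr, Apoa2 and Apob, above background in every library, did not have that order. Ttr had 9.39, 9.73 and 9.63, Apoa2 7.97, 7.67 and 8.03, and Apob 8.15, 7.92 and 8.15. Fgb was above background in WT alone, at 7.32. Ahsg, Apoh, Fga and Tat, other liver genes, were within background in every library. The part of hepatocyte-like cells was not tested.

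Many other drug-metabolizing members of liver were within background in every library. Of genes other than olfactory receptors, 23.1% were so. In the Cyp2c group, 12 of 13 members were within background in every library, at 3.68 to 6.50. These were Cyp2c23, Cyp2c29, Cyp2c38, Cyp2c39, Cyp2c50, Cyp2c54, Cyp2c55, Cyp2c65, Cyp2c66, Cyp2c67, Cyp2c68 and Cyp2c70. Cyp2c37 was the exception, with 7.15 in AireKO, 6.68 in Sirt1cKO and 6.29 in WT. Of 10 Cyp2d genes, mouse relatives of the human debrisoquine hydroxylase, 5 were within background throughout, and Cyp2d40 was above it in every library, at 7.36, 6.86 and 6.46. Both genes were higher in AireKO than in WT by less than 2-fold, by 0.86 and 0.90 on the log2 scale. The olfactory receptor genes themselves had a median AireKO minus WT of 0.70. Cyp2d22 had 6.54 in AireKO, within background, 6.40 in Sirt1cKO and 6.36 in WT. Cyp2d26 had 6.43, 6.51 and 6.69 and the pseudogene Cyp2d37-ps 6.85, 6.47 and 6.60 in the same order, and each was within background in AireKO. Cyp2d34 was above background in WT alone, at 6.07, 6.02 and 6.02. The 5 within background throughout were Cyp2d9, Cyp2d10, Cyp2d11, Cyp2d12 and Cyp2d13. Cyp2e1, which oxidizes ethanol, stood at 5.30 in AireKO, 5.42 in Sirt1cKO and 5.45 in WT, within background, as was Cyp2ab1. Cyp2w1, a P450 of fetal gut, had 6.61, within background, 6.41 and 6.65.

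Cyp3a13, a P450 of gut and liver, was above background in every library, with 7.92 in AireKO, 8.28 in Sirt1cKO and 8.49 in WT. Cyp3a25 stood at 6.89, 7.83 and 7.42 in the same order. Cyp3a57 was within background in AireKO, with 5.77, 6.64 and 6.11. Cyp3a11, the main drug-metabolizing family 3 enzyme of mouse liver, was within background at 5.10, 4.90 and 5.45, as were Cyp3a16 and Cyp3a44. The arachidonic acid epoxygenases of the Cyp2j group were divided. Cyp2j6 had 7.36 in AireKO, 7.98 in Sirt1cKO and 8.04 in WT. Cyp2j13 had 8.39, 8.58 and 8.47, and Cyp2j9 had 7.09, 7.05 and 6.97. Cyp2j5, Cyp2j11 and Cyp2j12 were within background throughout. Cyp2u1, a fatty acid hydroxylase, was at 7.31, 6.97 and 7.29. Genes of these groups are close copies, and a probe set of 1 may take signal from another.

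In family 4, the fatty acid hydroxylases, 12 of 16 members were above background in at least 1 library and 3 in all. The shares of genes other than olfactory receptors were 76.9% and 58.4%. Cyp4f39, which makes the omega-hydroxylated lipids of the skin barrier, stood at 7.65 in AireKO, 7.23 in Sirt1cKO and 8.13 in WT. Sirt1cKO was the lowest of the 3, with a difference from WT of -0.90, short of 2-fold. Cyp4f16 had 8.98, 9.13 and 9.37, and Cyp4f13 had 8.33, 8.81 and 8.68. Cyp4f18, which inactivates leukotrienes in neutrophils, had 6.10 in AireKO, within background, 6.73 in Sirt1cKO and 6.84 in WT. Of 9 neutrophil markers on the table, 3 were above background in AireKO, 7 in Sirt1cKO and 8 in WT. Their summed intensities were 1028, 2907 and 5657. Genes other than olfactory receptors were above background in 58.9%, 70.5% and 76.4% of cases in that order. S100a8, Ly6g, Mpo, Ltf and Ngp had the order of libraries of Cyp4f18, and all of these but S100a8 were within background in AireKO. Ly6g stood at 6.58 in AireKO, 9.62 in Sirt1cKO and 10.97 in WT. S100a9, Camp and Elane did not have that order, with 8.08, 9.18 and 8.98 for S100a9. The part of neutrophils in the Cyp4f18 values was not tested. Among the Cyp4a genes, which PPAR alpha induces in liver and kidney, Cyp4a10 was the 1 member of the 87 above background in AireKO alone, at 6.93 against 6.20 in Sirt1cKO and 6.01 in WT. Cyp4a12b was at 5.63, 7.18 and 6.28, within background in AireKO, and Cyp4a12a likewise at 6.15, 6.81 and 6.88. Cyp4f15 had 6.19 in AireKO, 6.94 in Sirt1cKO and 6.42 in WT, Cyp4f40 had 6.39, 6.44 and 6.21, and the pseudogene Cyp4f41-ps 6.85, 6.71 and 6.43, all within background in AireKO. Cyp4f14, a leukotriene hydroxylase of liver, and Cyp4b1, a lung enzyme, were above background in WT alone, at 6.03 and 6.14. Cyp4a14, Cyp4a31, Cyp4f37 and Cyp4x1 were within it throughout, at 4.04 to 5.78.

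**Figure D4:**
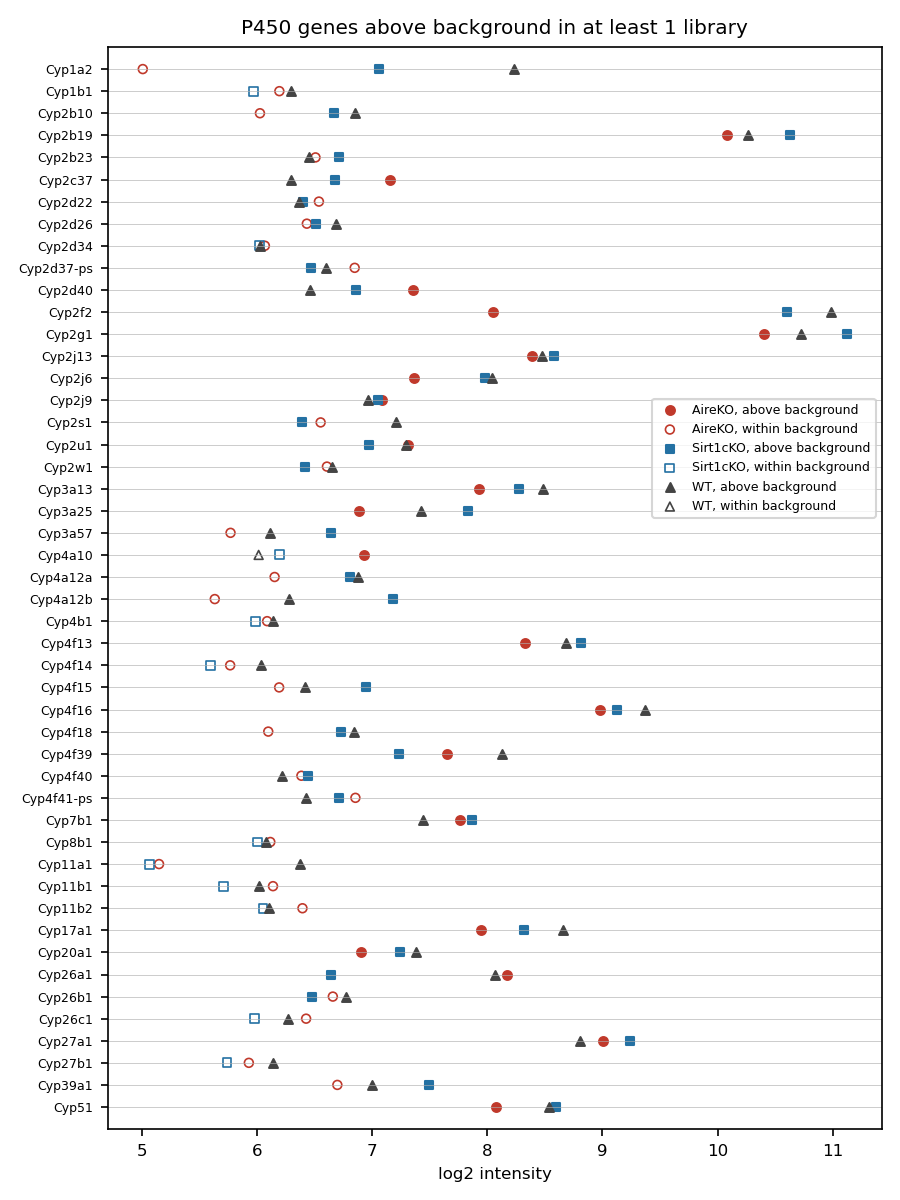
Log2 intensity (x axis) of the 48 P450 genes above background in at least 1 library, ordered by family (y axis), in AireKO (circles), Sirt1cKO (squares) and WT (triangles); open symbols are within background. Cyp1a2 and Cyp2f2 show the widest spread between libraries, and 20 genes have only filled symbols.

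Cyp26a1, the hydroxylase that degrades retinoic acid, was the member that set Sirt1cKO apart. Its log2 values were 8.17 in AireKO, 6.64 in Sirt1cKO and 8.07 in WT. Sirt1cKO minus WT was -1.42, or 2.68-fold lower, while AireKO minus WT was 0.10. Cyp26b1, which degrades retinoic acid as well, had 6.66 in AireKO, within background, 6.48 in Sirt1cKO and 6.77 in WT. Cyp26c1 had 6.43, 5.98 and 6.27, and was above background in WT alone. The bases before the start of Cyp26a1 are shown because retinoic acid induces this gene through response elements near its start. The window lies at chr19:37697558-37697807 on the plus strand of GRCm38.p6, from RefSeq, and held 20 CpG. Capitals mark its 1 match to the direct repeat AGTTCANNNNNAGTTCA, a form of retinoic acid response element, found on the reverse strand and beginning 32 bases before the start.
Cyp26a1: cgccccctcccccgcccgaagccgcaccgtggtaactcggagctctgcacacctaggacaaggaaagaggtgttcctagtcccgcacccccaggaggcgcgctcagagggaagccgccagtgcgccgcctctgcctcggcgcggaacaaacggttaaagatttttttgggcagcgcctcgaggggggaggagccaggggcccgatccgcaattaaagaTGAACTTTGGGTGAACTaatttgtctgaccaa

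That repeat was in 0.0213% of all windows, and in 1 of the 64 P450 genes with a window. Only this exact form was searched for, so a window without it may hold another form. Cyp26a1 is known to hold such elements, so these shares are no test of its match. The presence of the repeat before Cyp26a1 is a description and shows no binding. Other retinoid and vitamin D genes were read beside it. Of 12 on the table, 11 were above background in at least 1 of AireKO and WT, of which 2 were at least 2-fold lower and 0 higher in AireKO. In Sirt1cKO 1 of 11 was lower and 0 higher. The shares of all genes were 6.33% lower and 2.10% higher in AireKO, and 1.30% and 0.637% in Sirt1cKO. Crabp1, a retinoic acid binding protein, differed from WT by -3.99 in AireKO and -1.89 in Sirt1cKO. Dhrs3, a retinal reductase that retinoic acid induces, differed by -1.48 and -0.49, Crabp2 by -0.87 and -0.10, and Rdh10, which makes retinal, by -0.85 and -0.49. None of these 4 had the pattern of Cyp26a1, with AireKO near WT and Sirt1cKO lower. Cyp27b1, which activates vitamin D, was at 5.93 in AireKO and 5.74 in Sirt1cKO, both within background, and 6.14 in WT. Cyp2r1, the liver hydroxylase of vitamin D, was within background throughout, at 5.42, 5.87 and 5.05.

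Of the enzymes of steroid hormone synthesis, Cyp17a1 was above background in every library. This hydroxylase and lyase of the androgen pathway, whose human counterpart is an autoantigen, had 7.95 in AireKO, 8.32 in Sirt1cKO and 8.65 in WT, a difference from WT of -0.71 in AireKO and -0.33 in Sirt1cKO. Cyp11a1, the cholesterol side-chain cleavage enzyme that opens the pathway, had 5.15 in AireKO and 5.07 in Sirt1cKO, both within background, and 6.37 in WT. The WT value exceeded the WT percentile but not that of AireKO, so no fold is given for AireKO, and Sirt1cKO was at least 1.02-fold lower. Cyp11b1, the last enzyme of glucocorticoid synthesis, had 6.14, 5.71 and 6.02, and Cyp11b2, aldosterone synthase, 6.40, 6.05 and 6.10, each above background in WT by under 0.1. Cyp21a1, the adrenal hydroxylase that is the classical autoantigen of human adrenal failure, was within background in every library, at 5.55 in AireKO, 5.64 in Sirt1cKO and 5.59 in WT.

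Of 12 other steroid hormone genes on the table, 8 were above background in WT, of which 3 were at least 2-fold lower in AireKO and 2 in Sirt1cKO, with 0 higher in each. After median centring 1 was lower in AireKO and 2 in Sirt1cKO. Among all genes as deposited, 6.33% were lower and 2.10% higher in AireKO, and 1.30% and 0.637% in Sirt1cKO. Akr1c18, which inactivates progesterone, had 6.53 in AireKO, within background, 7.39 in Sirt1cKO and 9.15 in WT, at least 4.80-fold lower in AireKO and 3.40-fold lower in Sirt1cKO. Hsd3b6, a steroid dehydrogenase, was at least 2.38-fold lower in AireKO and 2.61-fold lower in Sirt1cKO than in WT. Hsd11b2, which inactivates glucocorticoids, differed by -1.04 in AireKO and -0.82 in Sirt1cKO. Star, which carries cholesterol into mitochondria, was at least 1.19-fold lower in AireKO and at least 1.74-fold lower in Sirt1cKO. Of 6 adrenal and gonad markers, 2 were above background in AireKO, 2 in Sirt1cKO and 3 in WT. Their summed intensities were 430, 493 and 542. The shares of genes other than olfactory receptors above background were 58.9%, 70.5% and 76.4% in that order. Nr5a1 and Inha were above background in every library, Nr5a1 at 6.90, 6.92 and 6.81 and Inha at 7.07, 7.55 and 7.54. The margin of Nr5a1 in AireKO was narrow. Mc2r, the receptor that defines adrenal cortex, Hsd3b1 and Amh were within background in all 3. The part of such cells was not tested.

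P450 enzymes act in both the synthesis and the breakdown of cholesterol. Cyp51, which removes a methyl group from lanosterol, had 8.07 in AireKO, 8.59 in Sirt1cKO and 8.53 in WT. It lay 0.46 below WT in AireKO and 0.06 above in Sirt1cKO. Of 18 other genes of cholesterol synthesis and its control, 7 were at least 2-fold lower and 0 higher in AireKO. In Sirt1cKO 0 passed 2-fold. The shares of all genes were 6.33% lower and 2.10% higher in AireKO, and 1.30% and 0.637% in Sirt1cKO. The 7 became 6 after quantile normalization, 5 after loess and 3 after median centring, with 0 higher each time. Their median differences were -0.94 and -0.33, where all 19937 genes had 0.02 and 0.00. Hmgcs1 differed from WT by -1.82 in AireKO and -0.45 in Sirt1cKO, Msmo1, which acts after Cyp51, by -1.71 and -0.54, Fdps by -1.32 and -0.49, and the feedback regulator Insig1 by -1.26 and -0.51.

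Cyp27a1, the mitochondrial sterol hydroxylase of the acidic bile acid route, had 9.0 in AireKO, 9.24 in Sirt1cKO and 8.80 in WT. Cyp7b1, the oxysterol hydroxylase that follows it, had 7.77, 7.86 and 7.44. Cyp27a1 differed from WT by 0.20 in AireKO and 0.44 in Sirt1cKO, and Cyp7b1 by 0.33 and 0.42, all short of 2-fold. Cyp39a1, which acts on an oxysterol of brain, had 6.70 in AireKO, within background, 7.49 in Sirt1cKO and 7.0 in WT. Cyp7a1, the rate-limiting enzyme of the classical route in liver, was within background at 4.83, 4.58 and 4.38, as was Cyp46a1, the cholesterol hydroxylase of neurons, at 6.37, 6.09 and 5.94. Cyp8b1, which sets the ratio of bile acids, had 6.12, 6.00 and 6.08, above background in WT alone. Of 10 further bile acid genes, 7 were within background in every library, beside 23.1% of genes other than olfactory receptors. Of the other 3, 0 passed 2-fold in either comparison with WT, a count too small to read. Among all genes 6.33% were lower and 2.10% higher in AireKO, and 1.30% and 0.637% in Sirt1cKO. Hsd3b7 differed by -0.47 in AireKO and -0.15 in Sirt1cKO, and Fgf15, an intestinal hormone within background in AireKO, by a bound of -0.32 in AireKO and by -0.19 in Sirt1cKO. Cyp20a1, an orphan member with no settled substrate, had 6.90, 7.24 and 7.38 in AireKO, Sirt1cKO and WT. P450 enzymes named otherwise were Ptgis, prostacyclin synthase, at 6.97, 6.79 and 6.75, and Tbxas1, thromboxane synthase, within background throughout.

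Genes that serve P450 enzymes were measured as well, from lists of the pathway. Of 6 electron transfer genes on the table, 1 was at least 2-fold lower in AireKO, Cyb5b at -1.01, and it was at -0.44 in Sirt1cKO. Under quantile normalization, loess and median centring 0 of the 6 passed in AireKO. As deposited, 6.33% of all genes were lower and 2.10% higher in AireKO, and 1.30% and 0.637% in Sirt1cKO. Pgrmc1, a heme-binding partner of P450 enzymes, differed by -0.64 and -0.16, Cyb5r3 by -0.21 and 0.34 and Cyb5a by 0.16 and 0.20. Of 8 genes of heme synthesis and breakdown, 0 passed 2-fold. Alas1, the rate-limiting enzyme of heme synthesis, differed by -0.77 in AireKO and -0.44 in Sirt1cKO, Hmox1, which breaks heme down, by -0.66 and -0.18, Cpox by -0.48 and -0.09, and Fech by -0.01 and 0.45. The list had a median difference of -0.30 in AireKO and 0.00 in Sirt1cKO.

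Of the regulators of drug metabolism, 9 of 13 were above background in WT, beside 76.4% of genes other than olfactory receptors. Of these regulators 1 was at least 2-fold lower in AireKO, the liver and myeloid factor Cebpa at -1.04, with -0.56 in Sirt1cKO. It did not pass under any of the 3 scalings. Nfe2l2, which drives antioxidant genes, differed by 0.71 and 0.25, Rxrb, a partner of nuclear receptors, by -0.60 and -0.31, and Foxa2 by 0.34 and 0.62. Nr1i2 and Nr1i3, the xenobiotic receptors of liver, were within background in all 3 libraries. Of 23 other drug-metabolizing enzymes above background, 7 were at least 2-fold lower and 1 higher in AireKO, and 1 lower and 0 higher in Sirt1cKO. Among all genes 6.33% were lower and 2.10% higher in AireKO, and 1.30% and 0.637% in Sirt1cKO. Under loess or quantile normalization the list had 7 lower and 2 higher genes in AireKO, and under median centring 6 and 2. Gsto1, a glutathione transferase, differed from WT by -2.45 in AireKO and -0.17 in Sirt1cKO, and Gstt1 by -2.06 and -0.82. Ugt2b34, a glucuronosyltransferase, was at least 3.38-fold lower in AireKO and differed by 0.44 in Sirt1cKO, and Tpmt, which methylates thiopurines, was higher by 1.56 and 0.75.

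Promoter sequence was the last feature compared. A window of 250 bases before the start was held for 64 of the 87 members. The median window held 3 CpG in the 16 members above background in every library, 3 in the 18 above it in some and 2 in the 30 within background throughout, against 6 over all 32851 windows. A window with 10 or more CpG was found for 8 of the 64 members, or 12.5%, against 37.8% of all windows. Among those above background in every library they were Cyp26a1 and Cyp51 with 20 each, Cyp20a1 with 15 and Cyp4f39 with 10. Cyp46a1 with 23 and Cyp2r1 with 16 were within background throughout.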

How the data were processed

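RNA of sorted mature medullary thymic epithelial cells was amplified, labelled with biotin and hybridised to Affymetrix Mouse Gene 1-ST arrays, 1 per genotype, per the labels' protocols and the series' design text. Per the submitters' processing notes, the tool was RMA. The deposited series table holds linear intensities, 1 for each probe set; the RMA version and the return to linear values were not given in the sources used here. Values were taken to log2 here without further normalization. Libraries were grouped by title and genotype.

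Of 34760 probe sets, 21640 had 1 symbol, 1321 several and 11799 none listed. The probe set with the highest mean was kept per gene, which gave 19937 genes. All 87 P450 genes matched RefSeq by Entrez identifier, with 0 symbols changed. A difference was counted at 2-fold or more among genes above the 95th percentile of the olfactory receptor genes in at least 1 of the 2 libraries. A value within background was replaced by the percentile, and the fold is then given as "at least". Summed intensities are on the linear scale.

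The members and gene lists were chosen with earlier results of these data known. Every member above background in at least 1 library was to be named, and up to 4 genes a pathway list, those with the largest differences from WT. Alternatives were quantile normalization, loess with a span of 0.3, median centring, the mean of several probe sets, other percentiles and thresholds, differences without bounds, another filter and exchanged labels. A single floor for all libraries was added after the data were seen. The counting was tested on simulated data and run in Python 3.11.15 with pandas 2.3.3; loess came from statsmodels 0.14.6.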

Additional observations from a re-analysis of the deposited data

How the results depend on the processing

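The counts above background depended on the percentile chosen. With the 99th percentile they were 13 in AireKO, 17 in Sirt1cKO and 21 in WT, and with 1 floor for all libraries, chosen after the data were seen, 21 in both Sirt1cKO and WT. Cyp2f2 in AireKO minus WT ranged from -2.94 to -2.67 over 8 alternatives at the same labels. Cyp1a2 passed 2-fold under 7 of 8 in AireKO and all 8 in Sirt1cKO; at the 99th percentile its bound in AireKO was -0.64. Cyp26a1 in Sirt1cKO minus WT ranged from -1.42 to -0.99 and passed under 7 of 8. At the 99th percentile 1 member was lower in AireKO and 1 in Sirt1cKO, beside 721 of all 11268 genes and 154 of 11375.

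After median centring 3 members were at least 2-fold higher in AireKO, beside 672 of all 14560 genes. At 1.5-fold, 4 were lower and 3 higher in AireKO, 4 lower and 1 higher in Sirt1cKO, and 5 lower in AireKO minus Sirt1cKO. Among all genes at 1.5-fold, 2687 of 14560 were lower and 1015 higher in AireKO. The counts were 1018 lower and 506 higher of 14594 in Sirt1cKO, and 1286 lower of 13453 in AireKO minus Sirt1cKO. At 3-fold, 1 member was lower in AireKO, 0 in Sirt1cKO, and 0 higher in AireKO minus Sirt1cKO. The counts of all genes were 188 of 14560, 20 of 14594 and 21 of 13453 in the same order. Without bounds, 3 members were at least 2-fold lower in AireKO minus Sirt1cKO, beside 344 of all 13453 genes. The median over all 87 members became -0.18 in AireKO and -0.0863 in Sirt1cKO after quantile normalization, -0.15 and -0.0769 after loess, and 0.32 and 0.13 after median centring. The cause was not tested.

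With the AireKO and Sirt1cKO labels exchanged, as the description fields have them, Cyp26a1 would be 0.10 in Sirt1cKO minus WT, and AireKO minus Sirt1cKO would be 2.55 for Cyp2f2 and -1.53 for Cyp26a1. Cyp1a2 would be lower in both still. No paired analysis was possible because each group has 1 library. Of 95 recomputed counts and medians, 72 stayed within 1.5 times the reported count or kept its value, and 23 moved.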

Other observations

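Probe sets whose annotation lists several symbols were left out of the 87, and 7 of them list a P450 gene. The probe set shared by 2 genes of the Cyp2a group, which lie in the chromosome 7 cluster, had log2 values of 10.20 in AireKO, 11.64 in Sirt1cKO and 11.76 in WT, all above background. AireKO lay below WT there by 1.56 on the log2 scale, and Sirt1cKO minus WT was -0.12. This is the pattern of libraries seen for Cyp2f2. A probe set listed under 3 genes of the Cyp3a group was above background in WT alone, at 7.80, with 5.48 in AireKO and 5.93 in Sirt1cKO. The other 5 held 4 probe sets within background in every library and 1, listed under a Cyp4v gene and a gene of another kind, at 6.81 in AireKO, within background, 7.16 in Sirt1cKO and 7.55 in WT.

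Some P450 genes of mouse liver differ between the sexes, and the libraries differed in sex-linked genes. Cyp2b9 and Cyp2b13, known as female-biased in liver, and Cyp2d9, known as male-biased, were within background in all 3 libraries. Cyp2b9 stood at 5.43 in AireKO, 5.60 in Sirt1cKO and 5.26 in WT. Cyp4a12a is male-biased in liver and kidney, and its values stand above.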
